A study of Mus musculus with 43 samples.

Results

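Bipolar cells are the interneurons that carry the signal of rods and cones from the outer to the inner retina. In the dark, photoreceptors release glutamate onto them. ON bipolar cells read this glutamate with the metabotropic receptor mGluR6, which acts through the G protein Go to close the cation channel TRPM1, whereas OFF bipolar cells use ionotropic receptors. A set of 9 genes known as markers of bipolar cells was followed here by symbol: *Grm6*, *Nyx*, *Trpm1*, *Gng13*, *Pcp2*, *Prkca*, *Cabp5*, *Scgn* and *Vsx1*. Each of the 9 had 1 row among the 54532 genes of the deposited count table, and each passed the filter on low counts, which kept 18173 genes.

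The samples were retinas of C57BL/6J mice that were 9 weeks old when they received laser burns that break through to the choroid, a model of choroidal neovascularization (CNV). Each library pooled 2 lasered retinas from different animals, so that unlasered tissue is not part of the comparisons and every group, controls included, carries the injury. Male and female mice either drank short-chain fatty acids (SCFA) from before the laser until sampling or received no SCFA, and retinas were taken 3, 7 or 14 days after the laser (days post-laser, dpl). Together these factors give 12 groups of 3 to 5 libraries. The labels give the drinking water as 67.5 mM sodium acetate, 40 mM sodium propionate and 25 mM sodium butyrate, but the masses per litre that accompany propionate and butyrate point the other way, and which of them was used is uncertain.

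The 43 libraries held 14826957 to 21507527 counts each (median 17683615). The table lists the groups in a first run of 31 columns and then again in a second run of 12 columns, and the labels do not say what sets the runs apart. Mitochondrial genes took 5.19% to 16.6% of the counts in the first run and 2.65% to 4.87% in the second, so the run was used as a block. The share also moved with treatment, at 5.19% to 9.71% in controls and 5.23% to 16.6% with SCFA in the first run, and at 2.65% to 3.48% and 3.95% to 4.87%, without overlap, in the second. Its part in the SCFA results was not tested. The library labelled female SCFA, 3 dpl, replicate 2 held 147000 CPM of 6 lens genes, against at most 618 CPM elsewhere, and was left out, which leaves 42 libraries. The library labelled female control, 7 dpl, replicate 2 had 784 counts of 4 Y-linked genes, against 0 in the other 21 libraries labelled female and at least 2229 in each male library. Results that rest on it are given with and without it.

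In retinas of SCFA-treated animals, *Cabp5*, *Vsx1* and *Gng13* rose on average over both sexes and all days, by 1.25-fold, 1.26-fold and 1.11-fold. These are 3 of 9 members, where 36.7% of all genes were called, so that the set did not stand apart by its number of calls. The call of *Gng13* held in 44 of 52 alternatives, 42 of which leave out 1 library each. It was lost, among others, without the run as block. *Cabp5* encodes a calcium-binding protein of rod and cone bipolar cells, *Vsx1* a homeodomain transcription factor of cone bipolar cells, and *Gng13* a gamma subunit of Go in ON bipolar cells. No member passed the test in any single sex and day. The average over sexes and days takes the difference between the runs of columns as the same in both treatments. A comparison chosen after seeing the data used the groups where both runs of columns hold both treatments, but some arms hold 1 library. There the log2 fold change of *Cabp5* was 0.94 in the first run and 0.06 in the second. That of *Vsx1* was 0.99 in the first run and -0.19 in the second. Neither gene was called within either run there. In RNA of whole retinas, a change in the number of bipolar cells and a change in RNA per cell cannot be told apart. In this mean, the mGluR6 receptor, its channel and nyctalopin did not pass the test.

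The proximal promoters of the 3 genes that rose are printed here because these genes were called in the mean response. Sequences are from RefSeq on GRCm38.p6, 250 bases before to 50 after the annotated start, 5′ to 3′ on the strand of the gene. Capitals mark matches to TAATCC or its reverse complement GGATTA, the bicoid-type core that homeodomain proteins such as Otx2 and Crx recognise. The *Cabp5* window is chr7:13397905-13398204 on the plus strand, the *Vsx1* window chr2:150689088-150689387 on the minus strand, and the *Gng13* window, the upstream one of its pair, chr17:25716922-25717221 on the plus strand.
Cabp5: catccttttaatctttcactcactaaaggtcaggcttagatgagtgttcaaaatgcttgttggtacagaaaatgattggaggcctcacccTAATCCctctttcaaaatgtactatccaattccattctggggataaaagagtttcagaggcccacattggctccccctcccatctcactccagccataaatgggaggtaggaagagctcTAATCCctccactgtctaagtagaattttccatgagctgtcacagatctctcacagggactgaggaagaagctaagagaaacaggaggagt
Vsx1: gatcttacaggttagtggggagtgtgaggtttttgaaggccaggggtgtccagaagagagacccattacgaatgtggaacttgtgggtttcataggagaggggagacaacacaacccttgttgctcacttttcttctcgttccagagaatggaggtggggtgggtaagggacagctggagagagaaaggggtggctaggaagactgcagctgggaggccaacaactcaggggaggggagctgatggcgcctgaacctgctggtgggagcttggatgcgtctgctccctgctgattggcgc
Gng13: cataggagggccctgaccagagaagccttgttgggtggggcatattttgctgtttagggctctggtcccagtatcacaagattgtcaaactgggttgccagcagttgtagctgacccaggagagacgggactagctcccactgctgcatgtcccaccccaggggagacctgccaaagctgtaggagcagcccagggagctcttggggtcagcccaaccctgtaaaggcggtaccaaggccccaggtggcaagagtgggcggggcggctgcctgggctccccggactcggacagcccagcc

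The *Cabp5* window holds 2 matches, and the windows of *Vsx1* and *Gng13* hold 0. Over all members, 2 of 14 windows had a match, those of *Cabp5* and *Trpm1*, where 2320 of all 32851 windows in the table (7.06%) had one. The paired-type core TAATTA, which reads the same on both strands, was found in 1 of the 14 windows, of *Pcp2*, and in 5.29% of all windows. A match describes the letters of the window and no binding.

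Among the genes of the mGluR6 receptor complex, *Grm6* (chr11:50850685-50866208, plus strand, GRCm38, as are all gene positions here) was counted at 77.0 to 156 CPM (median 108) in the 42 libraries. CPM is the count scaled to library size, with TMM factors. Its highest library was 2.03 times its lowest, the narrowest range of the 9, and its residual SD after group and run was 0.226 on the log2 scale. *Trpm1*, the channel of the same cascade (chr7:64153835-64269775, plus strand), was counted at 101 to 251 CPM (median 141). *Nyx* (chrX:13466110-13489313, plus strand) encodes nyctalopin, a leucine-rich repeat protein that holds the channel at the synapse, and was counted at 2.00 to 23.0 CPM (median 5.90). The lowest *Nyx* value rested on 36 counts. Its residual SD, 0.444 on the log2 scale, was the highest of the 9.

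For the G protein and its partner, *Gng13* (chr17:25717171-25719406, plus strand) was counted at 52.8 to 149 CPM (median 96.9). *Pcp2* (chr8:3623371-3625545, minus strand) encodes a GoLoco protein that binds the alpha subunit of Go in ON bipolar cells, and was counted at 58.4 to 169 CPM (median 95.1). *Prkca* (chr11:107933387-108343928, minus strand), protein kinase C alpha and the usual stain for rod bipolar cells, was counted at 142 to 328 CPM (median 199.8). Among the calcium-binding proteins, *Cabp5* (chr7:13398132-13408887, plus strand) was counted at 45.1 to 140.4 CPM (median 88.3). *Scgn* (chr13:23953456-23991214, minus strand) encodes secretagogin of cone bipolar cells and was counted at 30.3 to 86.4 CPM (median 56.0). *Vsx1* (chr2:150680702-150689360, minus strand) was counted at 9.27 to 30.6 CPM (median 18.3). The library of male control, 3 dpl, replicate 1 was lowest for *Prkca*, *Nyx*, *Cabp5*, *Vsx1* and *Scgn*, and female control, 14 dpl, replicate 2 was highest for *Prkca*, *Trpm1*, *Nyx* and *Vsx1*.

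Levels can be ranked only per length of exon, here as the median CPM per kb of exon. *Gng13* came first at 125 CPM per kb, followed by *Pcp2* at 52.0. *Cabp5* at 35.0 and *Scgn* at 34.6 CPM per kb were neighbours that did not separate, as *Cabp5* was above *Scgn* in 22 of 42 libraries. *Prkca* at 22.2 CPM per kb was above *Grm6* at 19.96 in 29 of 42 libraries, so that these also overlapped. *Trpm1* at 9.54, *Vsx1* at 4.82 and *Nyx* at 1.14 CPM per kb closed the order. By this length, each of *Grm6*, *Trpm1* and *Vsx1* was above its next neighbour in 42 of 42 libraries. The exons of *Trpm1* together span 14.746 kb, against 5711 bases in its longest transcript, and those of *Grm6* 5.421 kb against 4330 bases. The order, above all the place of *Trpm1*, thus depends on the length used. *Gng13* was above *Pcp2* in 42 of 42 libraries, and *Pcp2* above *Cabp5* in 38 of 42.

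Exons of some members overlap genes on the opposite strand, and the strand setting of the counting is not given in the sources used here, so that such reads cannot be told apart. *Pcp2* shares 941 bases with *Pet100*, which was counted at 4.91 to 27.7 CPM, and *Gng13* shares 399 bases with *Chtf18*, at 2.56 to 8.24 CPM. *Grm6* shares 599 bases with the antisense gene *Gm12660*, at no more than 1.77 CPM. The overlaps of *Prkca* and *Trpm1* were of 30 and 12 bases, and *Nyx*, *Cabp5*, *Vsx1* and *Scgn* share no exon base with another gene.

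**Figure D1:**
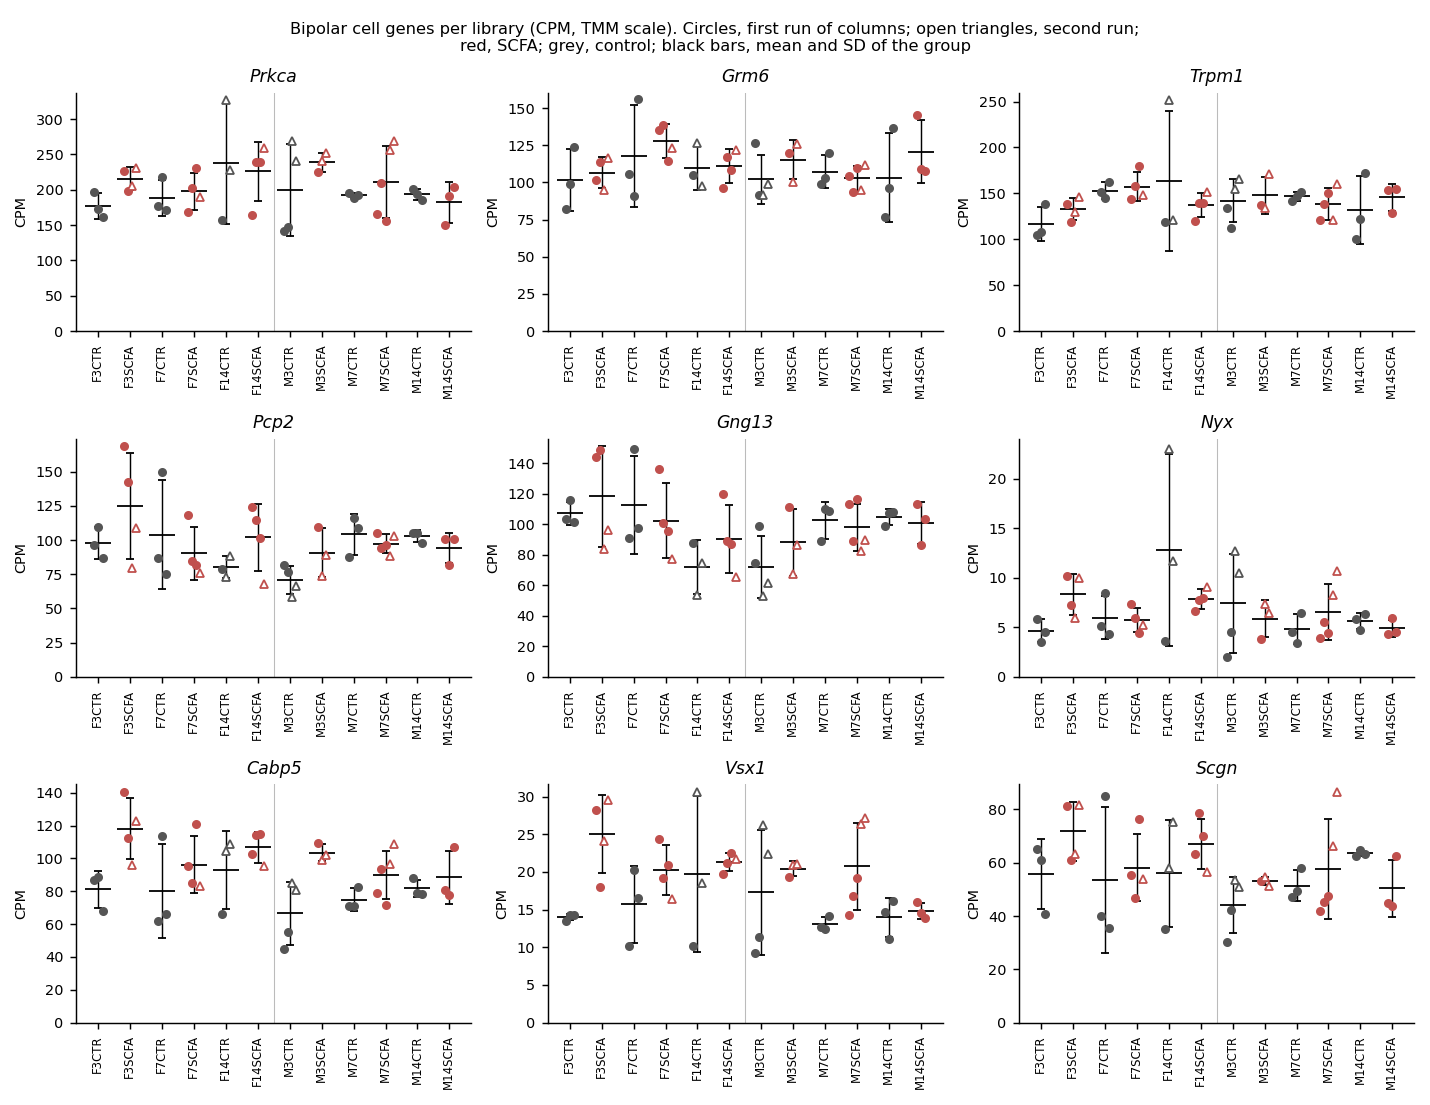
CPM of each bipolar cell gene (y axis, from 0) in the 12 groups (x axis; F and M, sex; 3, 7 and 14, dpl; CTR, control). Each point is a library, circles from the first and open triangles from the second run of columns, with SCFA in red, control in grey, and the mean and SD of the group as bars. In M3CTR and F14CTR, the control groups with both runs, the triangles sit above the circles for *Nyx*, *Cabp5* and *Vsx1* and below them for *Gng13*.

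The question of whether SCFA changed bipolar cell genes was first asked for each sex and day. *Cabp5* in males at 3 dpl was counted at 45.1, 55.2, 85.1 and 80.6 CPM in the controls and at 109, 99.3 and 102 CPM with SCFA. In females at 3 dpl, the controls had 86.8, 88.7 and 67.8 CPM of *Cabp5* and the SCFA libraries 140.4, 112, 96.2 and 123 CPM. All SCFA libraries lay above all controls in both sexes at this day. These female controls were all of the first run, and the SCFA females at 96.2 and 123 CPM were of the second. *Prkca* in these females did not overlap either, at a log2 fold change of 0.098 (SE 0.17). The share of all genes without overlap is not given, for this or the comparisons below. At 7 dpl, *Cabp5* in males was 70.8, 70.8 and 82.9 CPM in controls and 78.9, 93.5, 71.5, 96.5 and 109 CPM with SCFA. The female controls at 7 dpl had 61.7, 113 and 66.0 CPM of *Cabp5* and the SCFA libraries 95.5, 85.0, 121 and 83.0 CPM. The groups overlapped in both sexes, in females through the library with Y-linked counts, which held the 113 CPM. At 14 dpl, *Cabp5* in males was 87.9, 79.2 and 78.3 CPM in controls and 80.7, 77.8 and 107 CPM with SCFA. The female controls at 14 dpl had 65.9, 105 and 109 CPM and the SCFA libraries 103, 114, 115 and 95.6 CPM of *Cabp5*. Here the groups overlapped in both sexes, and the lowest female control was the one from the first run of columns.

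*Vsx1* in males at 3 dpl was 9.27, 11.3, 26.2 and 22.3 CPM in controls and 19.3, 20.96 and 21.1 CPM with SCFA. In females at 3 dpl, it was 13.6, 14.3 and 14.3 CPM in controls and 28.3, 18.0, 24.1 and 29.6 CPM with SCFA. The SCFA libraries lay above all controls in females, and between the controls of the first and second runs in males. These female controls were all of the first run, and the SCFA females at 24.1 and 29.6 CPM were of the second. At 7 dpl, males had 12.7, 12.5 and 14.1 CPM of *Vsx1* in controls and 14.3, 16.9, 19.2, 26.4 and 27.2 CPM with SCFA. Female controls at 7 dpl had 10.2, 20.3 and 16.6 CPM and SCFA libraries 24.4, 19.3, 20.9 and 16.5 CPM of *Vsx1*. The males did not overlap and the females did. The male controls were all of the first run, and the SCFA males at 26.4 and 27.2 CPM were of the second. At 14 dpl, *Vsx1* was 14.6, 11.1 and 16.2 CPM in male controls and 16.0, 14.5 and 13.9 CPM in SCFA males. Female controls at 14 dpl had 10.1, 30.6 and 18.5 CPM of *Vsx1* and SCFA libraries 19.8, 21.2, 22.5 and 21.8 CPM. Both sexes overlapped, with the female SCFA libraries inside the range of their controls.

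*Gng13* in males at 3 dpl was 74.9, 98.7, 52.8 and 61.2 CPM in controls and 111, 67.3 and 86.1 CPM with SCFA, and in females at 3 dpl 104, 116 and 102 CPM in controls and 144, 149, 83.9 and 96.4 CPM with SCFA. The groups overlapped in both sexes, the lower libraries of each group with both runs being those of the second. At 7 dpl, males had 88.7, 110 and 109 CPM of *Gng13* in controls and 113, 89.0, 116, 82.5 and 89.4 CPM with SCFA, and females 91.2, 149 and 97.4 CPM in controls and 136, 101, 95.4 and 77.5 CPM with SCFA. At 14 dpl, *Gng13* was 98.8, 107 and 108 CPM in male controls, 114, 86.3 and 104 CPM in SCFA males, 88.0, 53.3 and 74.5 CPM in female controls and 120, 88.8, 87.2 and 65.5 CPM in SCFA females. Treated and control libraries overlapped at both days in both sexes.

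No member was called in any of the 6 comparisons of SCFA with control in 1 sex at 1 day, where called means an adjusted p under 0.1 in edgeR's quasi-likelihood test over all 18173 genes. DESeq2 also called 0 of 9 in each. At 3 dpl, 3 members in males and 4 in females had an unadjusted p under 0.05, and 12% and 15% of all genes did. The share of all genes called was 0.0275% in males and 0.418% in females. At 7 dpl, 0 members in either sex had an unadjusted p under 0.05, against 30.7% of all genes in males and 17.1% in females. The shares of all genes called were 23.8% and 0.941%. At 14 dpl, again 0 members in either sex did, against 22.5% of all genes in males and 3.19% in females, with 9.68% of all genes called in males and 0% in females. The male comparison at 7 dpl thus called 4332 genes without a member among them.

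The members' values at 3 dpl lay to the positive side, as did those of some other cell types, without a called gene in any marker list. In males all 6 cone genes (0.17 to 0.53) and 6 lens genes (0.25 to 1.14) were above 0. All 7 amacrine (-0.66 to -0.04) and 6 microglia genes (-0.72 to -0.11) were below. So were all 6 ganglion cell genes (-0.49 to -0.05) and 4 horizontal cell genes (-0.18 to -0.16). In females all 6 Müller glia genes (0.09 to 0.64) and 5 pigment epithelium genes (0.19 to 1.15) were above 0 on the log2 scale. The same held for all 6 pigment cell genes (0.43 to 1.20) and 6 lens genes (1.52 to 2.76). It also held for all 4 horizontal cell genes (0.02 to 0.2) and 4 oligodendrocyte genes (0.39 to 5.81). The part of these cells in the members' values at 3 dpl was not tested. In females at 3 dpl, all 9 members had a log2 fold change above 0, with a median of 0.37, against -0.03 over all genes. *Pcp2*, at 0.50 (SE 0.18, edgeR's adjusted p = 0.201), was 96.7, 110 and 87.1 CPM in controls and 169, 143, 79.3 and 109 CPM with SCFA, with overlap through the libraries of the second run. In males at 3 dpl, 8 of 9 were above 0, with a median of 0.24, against 0.01 over all genes, and *Cabp5* had the largest value at 0.63 (SE 0.19, edgeR's adjusted p = 0.226). *Nyx* was the member below 0 there, at -0.37 (SE 0.35). At 14 dpl the members were spread around 0 in males, with a median of -0.05, and had a median of 0.12 in females. *Scgn* in males at 14 dpl was 62.7, 64.9 and 63.2 CPM in controls and 44.8, 43.8 and 62.6 CPM with SCFA, without overlap, but did not pass the test (log2 fold change -0.34, SE 0.25, edgeR's adjusted p = 0.442).

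The mean of the 6 sex and day comparisons, which has the smallest error, was tested next. Of the 9 members, 3 were called, all higher with SCFA, where 17.7% of all genes were called higher and 19% lower. DESeq2 called the same 3 genes. *Cabp5* had a log2 fold change of 0.32 (SE 0.08, edgeR's adjusted p = 0.00238), with a positive value in 6 of 6 comparisons, from 0.11 to 0.63. *Vsx1* had 0.34 (SE 0.10, edgeR's adjusted p = 0.00897), also positive in 6 of 6, from 0.08 to 0.59. *Gng13* had 0.15 (SE 0.06, edgeR's adjusted p = 0.0645), with a positive value in 4 of 6, from -0.05 to 0.39. The share of members called was close to the share of all genes, and the median of the 9 was 0.10 against -0.01 over all genes. This fit takes the run difference as the same in both treatments, and some control groups hold no library of the second run. The adjusted p of *Cabp5* and *Vsx1* rest on that assumption. In the interaction given below, their responses differed between the runs by -0.87 and -1.18 on the log2 scale, with single libraries in some arms. The first run alone, which does not need the assumption, gave 0.52 and 0.60.

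The other members were not called in the mean response. *Pcp2* had a log2 fold change of 0.15 (SE 0.07, edgeR's adjusted p = 0.13), *Scgn* 0.10 (SE 0.10), *Grm6* 0.09 (SE 0.07) and *Prkca* 0.05 (SE 0.07). *Trpm1* at -0.01 (SE 0.07) and *Nyx* at -0.08 (SE 0.15) lay below 0. When female control, 7 dpl, replicate 2 was left out, *Pcp2* was called as well (log2 fold change 0.21, edgeR's adjusted p = 0.0143). *Gng13* depended on single libraries, as its adjusted p in edgeR rose to 0.11 without male SCFA, 14 dpl, replicate 1, to 0.11 without female SCFA, 7 dpl, replicate 1, to 0.12 without female control, 7 dpl, replicate 1, and to 0.107 without female control, 14 dpl, replicate 2.

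**Figure D2:**
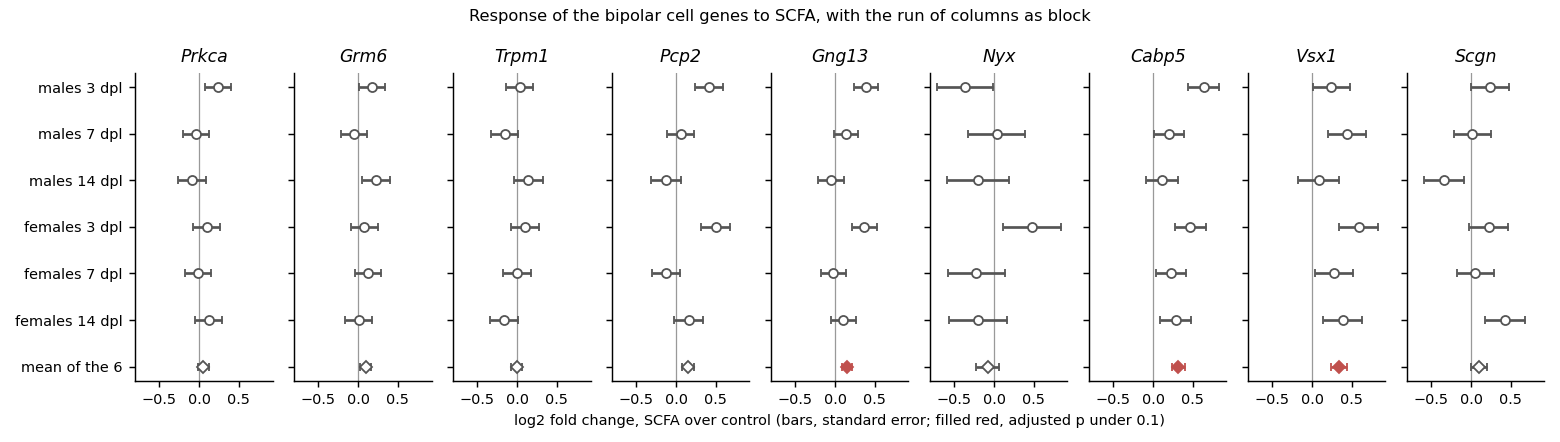
Log2 fold change of SCFA over control (x axis) for each bipolar cell gene in the 6 sex and day comparisons (circles) and in their mean (diamonds), with standard errors as bars and filled red symbols for an adjusted p under 0.1. *Cabp5* and *Vsx1* lie right of 0 in all 6 comparisons, and the filled symbols are the means of *Gng13*, *Cabp5* and *Vsx1*.

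The members also differed between the runs of columns within groups. The second run was higher for *Nyx*, *Vsx1*, *Prkca*, *Scgn* and *Trpm1* and lower for *Gng13* and *Pcp2*, so that 7 of 9 were called, 5 higher and 2 lower, where 53.3% of all genes were called, 27.4% higher and 25.9% lower. *Nyx* rose by a log2 fold change of 0.83 (SE 0.20, edgeR's adjusted p = 0.000794), from a median of 4.95 CPM in the first run to 9.53 CPM in the second. *Gng13* fell by 0.52 on the log2 scale (SE 0.08, edgeR's adjusted p = 3.41e-06), from a median of 104 to 76.0 CPM. *Pcp2* fell by 0.36 on the log2 scale (SE 0.10). *Vsx1* rose by 0.49 (SE 0.13), *Prkca* by 0.39 (SE 0.09), *Scgn* by 0.29 (SE 0.13) and *Trpm1* by 0.19 (SE 0.09), all on the log2 scale. *Cabp5* at 0.15 (SE 0.10) and *Grm6* at -0.02 (SE 0.09) did not pass the test.

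Members of the same cascade thus moved in opposite directions between the runs. The log2 ratio of *Nyx* to *Gng13* CPM was -5.23 to -3.45 in the 30 libraries of the first run (median -4.32) and -3.88 to -1.21 in the 12 of the second (median -3.13). The ranges overlapped. *Pet100*, which overlaps *Pcp2*, fell by 1.05 on the log2 scale between the runs (edgeR's adjusted p = 2.27e-06).

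**Figure D3:**
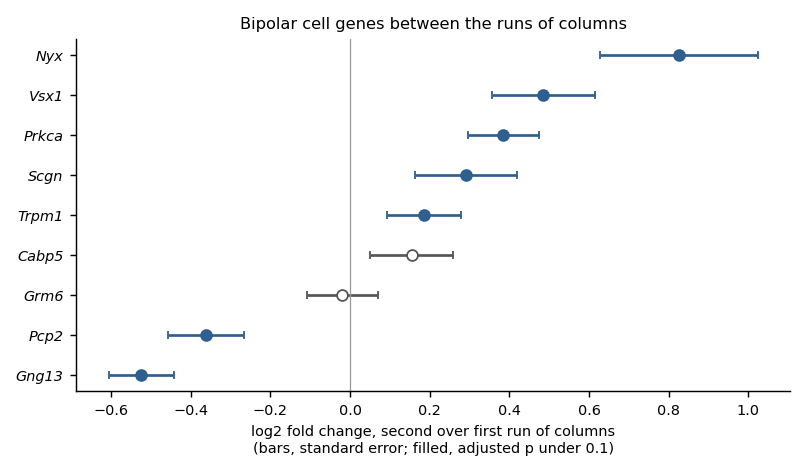
Log2 fold change of the second over the first run of columns (x axis) for each bipolar cell gene, in the fit of 42 libraries with group and run, with standard errors as bars and filled symbols for an adjusted p under 0.1. *Nyx* is highest at 0.83 and *Gng13* lowest at -0.52.

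Since the runs differ, the response to SCFA was also compared within each run, in a comparison chosen after seeing the data. Males at 3 dpl and females at 14 dpl are the sex and day groups with both treatments in both runs. In the first run these are 2 control males against 1 SCFA male and 1 control female against 3 SCFA females, and in the second run 2 against 2 and 2 against 1. Within the second run, *Cabp5* at 3 dpl in males was 85.1 and 80.6 CPM in controls against 99.3 and 102 CPM with SCFA, and at 14 dpl in females 105 and 109 CPM in controls against 95.6 CPM with SCFA. *Vsx1* in the second run was 26.2 and 22.3 CPM against 20.96 and 21.1 CPM in the males and 30.6 and 18.5 CPM against 21.8 CPM in the females. The SCFA libraries of the second run thus lay below their controls or between them for *Vsx1*, and above them for *Cabp5* in males alone. *Nyx* in the second run was 12.7 and 10.4 CPM against 7.34 and 6.46 CPM in the males and 23.0 and 11.7 CPM against 9.06 CPM in the females, with all controls above the SCFA libraries.

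Averaged over these 2 comparisons, *Cabp5* had a log2 fold change of 0.94 (SE 0.19, edgeR's adjusted p = 0.123) in the first run and of 0.06 (SE 0.09) in the second. *Vsx1* had 0.99 (SE 0.20, edgeR's adjusted p = 0.123) in the first run and -0.19 (SE 0.15) in the second. *Nyx* had 0.62 (SE 0.31) in the first run and fell by 0.84 on the log2 scale (SE 0.24, edgeR's adjusted p = 0.0494) in the second, where it was the 1 member called. Within the first run 0 members were called, and 5 had an unadjusted p under 0.05, as did 9.73% of all genes. The shares of all genes called were 0.0208% in the first run and 14.5% in the second. With both runs and the run as a block, 0 members were called in this average, 3 had an unadjusted p under 0.05, as did 10.9% of all genes, and 0.347% of all genes were called.

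The spread in each of these fits comes from all groups of the libraries fitted. The SCFA males and control females of the first run and the SCFA females of the second are 1 library each, assumed to vary like the others. In the second run alone, with 12 libraries, the spread rests on the few groups that hold 2 libraries there, and so does the call of *Nyx*. The difference of the responses between the runs, taken as an interaction, was called for *Vsx1* at -1.18 (SE 0.28, edgeR's adjusted p = 0.0657), *Cabp5* at -0.87 (SE 0.24, edgeR's adjusted p = 0.0876) and *Nyx* at -1.45 (SE 0.42, edgeR's adjusted p = 0.0992), on the log2 scale and as the second run minus the first. These are 3 of 9 members, where 1.73% of all genes were called, and with single libraries in these arms a library and the run cannot be told apart. *Scgn* at -0.89 (SE 0.32) and *Prkca* at -0.62 (SE 0.21) did not pass the test, and *Gng13* at -0.03 (SE 0.24) and *Grm6* at 0.10 (SE 0.27) lay near 0. *Gng13* had 0.26 (SE 0.18) in the first run and 0.23 (SE 0.12) in the second. The first run alone, which has libraries of all 12 groups, gave 0.52 for *Cabp5* (edgeR's adjusted p = 0.000227), 0.60 for *Vsx1* (edgeR's adjusted p = 9.48e-05) and 0.16 for *Gng13* (edgeR's adjusted p = 0.174) as the mean of the 6 comparisons, with 30.1% of all genes called. In that fit *Pcp2* at 0.23 and *Prkca* at 0.21 were called as well, so that 4 of 9 members were.

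**Figure D4:**
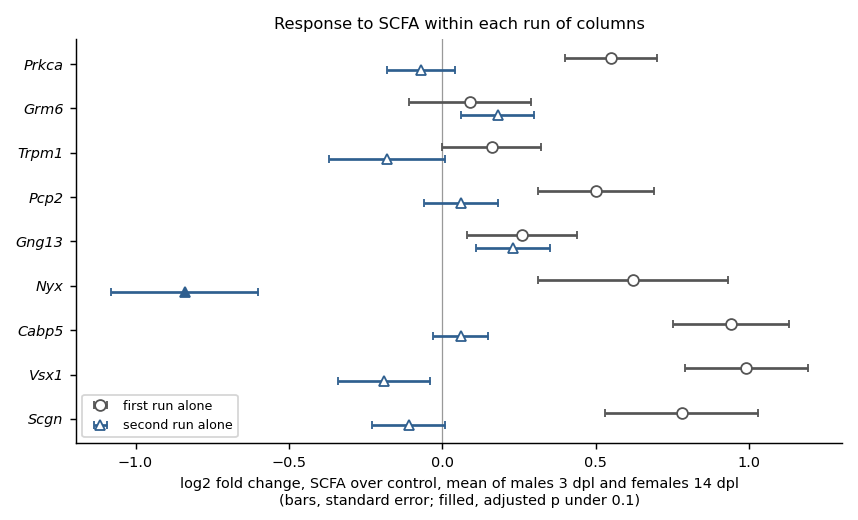
Log2 fold change of SCFA over control (x axis), averaged over males at 3 dpl and females at 14 dpl, for each bipolar cell gene in the first run of columns alone (circles) and in the second run alone (triangles), with standard errors as bars and filled symbols for an adjusted p under 0.1. *Cabp5* lies at 0.94 in the first run and 0.06 in the second, *Vsx1* at 0.99 and -0.19, and *Nyx* lies on opposite sides of 0.

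The study's comparisons at 7 and 14 dpl were run as well with the study's libraries alone and without a block. For males at 14 dpl these are all 3 libraries of each group, and elsewhere at least 1 group holds fewer than the table, except between the sexes at 14 dpl. The study's methods state 3 male controls at 7 dpl and 2 female controls at 14 dpl. The comparisons between the sexes here used 2 and 3 of these. For males at 7 dpl this called 3 of 9 members, all higher with SCFA, where 19.1% of all genes were called. *Vsx1* had a log2 fold change of 0.85 (SE 0.17, edgeR's adjusted p = 0.0227), *Cabp5* 0.42 (SE 0.10, edgeR's adjusted p = 0.0329) and *Prkca* 0.35 (SE 0.11, edgeR's adjusted p = 0.061). Its controls were all of the first run, and 2 of its 3 SCFA libraries were of the second. *Prkca* was 166, 209 and 156 CPM in the SCFA libraries of the first run and 256 and 270 CPM in those of the second. With all libraries and the block, *Prkca* was at -0.04 (SE 0.16).

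For females at 14 dpl, the same choice called *Pcp2* at 0.52 (SE 0.14, edgeR's adjusted p = 0.0697), *Gng13* at 0.66 (SE 0.20, edgeR's adjusted p = 0.0776) and *Nyx* at -1.20 (SE 0.26, edgeR's adjusted p = 0.057), 3 of 9 members where 17.7% of all genes were called. It sets 2 controls of the second run against 3 SCFA libraries of the first, so that run and treatment cannot be told apart. *Nyx* was 23.0 and 11.7 CPM in these controls, 3.64 CPM in the control of the first run, 6.63, 7.73 and 7.98 CPM in the SCFA libraries of the first run and 9.06 CPM in that of the second. The 2 called higher are the members that were lower in the second run, and the 1 called lower is the member with the largest rise there. The same controls also enter the estimate of the run difference, so that the 2 results are not independent. The part of the run in these calls was not tested.

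For males at 14 dpl, where all libraries are of the first run, the study's libraries called 1 of 9, *Scgn*, at -0.33 (SE 0.13, edgeR's adjusted p = 0.0989), where 24.6% of all genes were called. For females at 7 dpl they called 0 of 9, with 0% of all genes called. *Scgn* at 0.83 (SE 0.20), *Cabp5* at 0.78 (SE 0.18) and *Vsx1* at 0.78 (SE 0.26) had the largest values in those 2 against 2 libraries, which leave out the control with Y-linked counts. None of the 9 members was a DEG, an adjusted p under 0.1 with a fold change limit that is read here as an absolute log2 fold change over 1, in the fit with the block, and *Nyx* in females at 14 dpl was beyond both limits in the study's libraries.

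**Figure D5:**
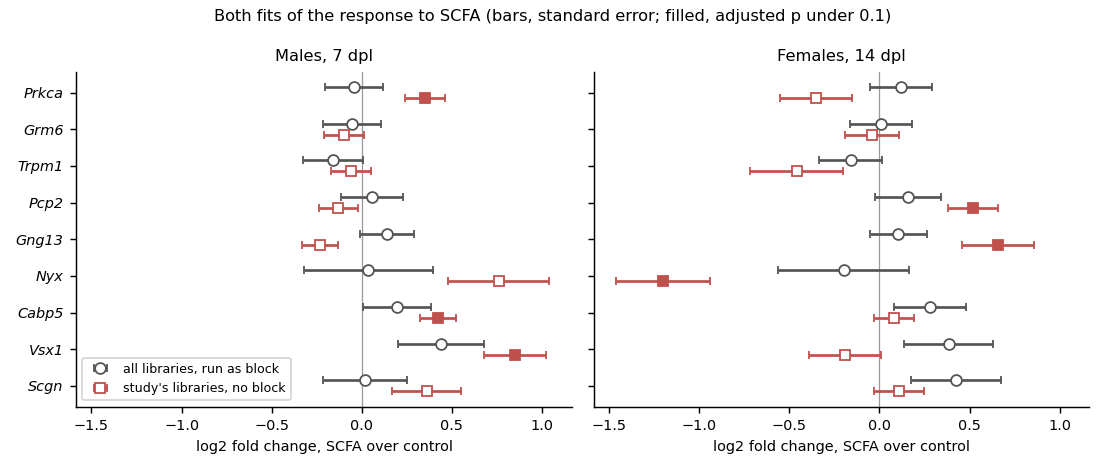
Log2 fold change of SCFA over control (x axis) in males at 7 dpl and females at 14 dpl, for each bipolar cell gene with all libraries and the run as block (grey circles) and with the study's libraries and no block (red squares), with standard errors as bars and filled symbols for an adjusted p under 0.1. *Prkca* moves from -0.04 to 0.35 in males, and *Nyx* from -0.20 to -1.20 in females.

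The sexes were compared in control retinas. At 7 dpl, 0 of 9 members were called, 0 had an unadjusted p under 0.05, and 0.0495% of all genes were called. At 14 dpl, 0 of 9 members were called and 0 had an unadjusted p under 0.05, with 6.28% of all genes called. *Nyx*, on chromosome X, was 4.55, 3.42 and 6.49 CPM in male and 5.13, 8.43 and 4.35 CPM in female controls at 7 dpl, with overlap. In the study's libraries at 7 dpl, which leave out the female control with Y-linked counts, 2 of 9 were called higher in males, *Pcp2* at 0.46 (SE 0.11, edgeR's adjusted p = 0.0576) and *Scgn* at 0.50 (SE 0.12, edgeR's adjusted p = 0.0646), where 6.59% of all genes were called. *Pcp2* in these female controls was 86.9 and 75.2 CPM, 150 CPM in the one left out, 116 and 109 CPM in the 2 males used and 87.6 CPM in the male control left out. With the study's libraries at 14 dpl, 0 of 9 were called, with 0.0376% of all genes called.

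The response to SCFA was not shown to differ between the sexes for any member at 7 or 14 dpl, and this was not tested at 3 dpl. The interaction of sex and SCFA called 0 of 9 at 7 dpl, with 0.0165% of all genes called, and 0 of 9 at 14 dpl, with 0%. *Scgn* at 14 dpl was the 1 member with an unadjusted p under 0.05, at a log2 fold change of -0.34 in males and 0.42 in females (difference -0.76, SE 0.35, edgeR's adjusted p = 0.429), where 11.2% of all genes had one. DESeq2 called 0 of 9 in both. Over time, averaged over sexes and treatments, 0 of 9 members were called between 3 and 7 dpl, with 0.0055% of all genes, and 0 of 9 between 7 and 14 dpl, with 0.0385%. In each interval 1 member had an unadjusted p under 0.05, where 4.52% of all genes did from 3 to 7 dpl and 11.5% from 7 to 14 dpl. These were *Trpm1* from 3 to 7 dpl at 0.20 (SE 0.09) and *Gng13* from 7 to 14 dpl at -0.16 (SE 0.08), and DESeq2 called 0 of 9.

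Other genes of the bipolar cell were counted from lists, to be read against the 17.7% of all genes called higher and 19% called lower in the mean response. Of 8 further genes of the mGluR6 cascade, 0 were called higher and 1 lower with SCFA in the mean response. This was *Gnb3*, the beta subunit that pairs with *Gng13*, at -0.21 (SE 0.07, edgeR's adjusted p = 0.0222), opposite in sign to *Gng13*. Of 6 partners on the photoreceptor side of the synapse, *Elfn1*, which binds mGluR6 across the cleft, rose by 0.18 (SE 0.06) and *Lrit3*, a partner of nyctalopin, fell by 0.24 on the log2 scale (SE 0.11). Of 10 transcription factors of bipolar cells, 4 were called higher and 2 lower. *Isl1* rose by 0.25 (SE 0.05), *Prdm8* by 0.21 (SE 0.05) and *Irx5* by 0.28 (SE 0.10), and *Bhlhe23*, of rod bipolar cells, fell by 0.27 on the log2 scale (SE 0.09). Of 13 genes that mark bipolar types, 2 were called higher and 2 lower, with *Car8* of rod bipolar cells at 0.36 (SE 0.09), *Tacr3* at 0.24 (SE 0.11), *Syt2* at -0.42 (SE 0.10) and *Cpne9* at -0.37 (SE 0.07). The medians of these 4 lists were -0.07, 0.01, 0.08 and 0.05.

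Between the runs of columns, where 27.4% of all genes were called higher and 25.9% lower, the same lists were counted. In the mGluR6 cascade 4 of 8 were called higher in the second run, with *Rgs7*, the regulator that speeds the shut-off of Go, at 0.43 (SE 0.06). Of the 6 synaptic partners, 5 were called higher, with *Lrit3* at 1.12 (SE 0.14), and 1 lower. Of the transcription factors 4 of 10 were called higher and 4 lower, with *Prdm8* at -0.41 (SE 0.06) and *Otx2* at -0.37 (SE 0.06). Of the type genes 5 of 13 were called higher and 2 lower, with *Syt2* at 0.74 (SE 0.13).

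Markers of other retinal cells were set beside the members, against the same 17.7% and 19% of all genes. In the mean response to SCFA, 4 of 6 ganglion cell genes were called lower and 0 higher, with a range of the summed level of 717 to 1240 CPM in controls and 644 to 974 CPM with SCFA. Of 6 Müller glia genes 3 were called higher, at 4400 to 6540 CPM in controls and 4200 to 9360 CPM with SCFA, and of 7 amacrine cell genes 2 were called higher and 2 lower. In rods 1 of 7 was called lower, *Cnga1*, at 67600 to 82400 CPM in controls and 44800 to 93600 CPM with SCFA, and in cones and horizontal cells 0 of 6 and 0 of 4 were called. Of 6 pigment cell genes 3 were called lower, *Dct*, *Pmel* and *Mlana*, at 25.5 to 231 CPM in controls and 22.5 to 102 CPM with SCFA, and *Trpm1*, which pigment cells also express, was at -0.01. Of 6 microglia genes 2 were called lower, of 4 endothelial genes 1, and of the genes of pigment epithelium, lens and oligodendrocytes none in either direction, out of 5, 6 and 4. The part of these cells in the members' values was not tested.

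Across the 42 libraries, after removal of the run difference, the members did not all vary together. *Cabp5* correlated with the mean of the other members at r = 0.82, *Vsx1* at 0.79, *Scgn* at 0.68, *Pcp2* and *Nyx* at 0.60, *Prkca* at 0.56, *Gng13* at 0.38, *Trpm1* at 0.22 and *Grm6* at 0.02. These values describe libraries that share their normalization and groups. *Cabp5*, *Vsx1* and *Scgn* thus followed the rest of the set most closely, and the receptor and channel genes *Grm6* and *Trpm1* least. Among 10133 other genes with a mean of at least 10 CPM, those most like the mean of the members were *Sebox* (r = 0.839), a homeobox gene that is also in the list of transcription factors above, *Lrtm1* (r = 0.835), *Gabrr1* (r = 0.822), a GABA receptor subunit of bipolar cells, *Lyve1* (r = 0.797) and *Abcd2* (r = 0.794).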

How the data were processed

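Retinal RNA of 43 libraries was sequenced, and the authors deposited raw counts of reads per gene for 54532 genes, without normalization. The submitters' processing notes name mm10 and DESeq2. The aligner, counting program, annotation and strand setting are not given in the sources used here. GENCODE M21 on GRCm38, the same assembly, named 54495 rows and not the other 37. Groups came from the sample titles.

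Genes with low counts were removed by filterByExpr of edgeR 4.0.16 in R 4.3.3, libraries were scaled by TMM, and 42 libraries were fitted by the quasi-likelihood test with terms for group and for the run. P-values were adjusted by the Benjamini-Hochberg method over 18173 genes. The standard error (SE) is the log2 fold change divided by the square root of F. The test was tried on simulated data. DESeq2 1.42.0 was an alternative, as were other scaling (RLE), filters, thresholds, libraries, no block for the run, a replicate block, trends with GC content and length, and each library left out. Replicates differed by more than sampling noise. Each library pools retinas of different animals, but whether both eyes of an animal went to different libraries is not given, so that p-values measure the spread between these libraries.

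All 9 members are named, and from other lists up to 4 called genes per list and comparison in which a member was called. Some genes under that rule are counted without their values. The members and lists were chosen with earlier results of these data known. Counting precision: 3 counts, the floor, correspond to 0.139 to 0.202 CPM per library, for counting error only. Figures were drawn with matplotlib 3.10.9 in Python 3.11.15.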

Additional observations from a re-analysis of the deposited data

Results flagged for a closer look

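The library labelled female SCFA, 3 dpl, replicate 2, which the comparisons leave out, held 147000 CPM of 6 lens genes, above the highest control library at 357 CPM. In it *Grm6* was 45.0 CPM and *Trpm1* 81.3 CPM, below the lowest of the other 42 libraries on the same scale, and *Prkca* 144 CPM, *Pcp2* 82.6 CPM, *Gng13* 79.7 CPM, *Nyx* 11.3 CPM, *Cabp5* 71.1 CPM, *Vsx1* 13.2 CPM and *Scgn* 50 CPM, within their range. These values are without TMM factors. With this library added, 3 members were called in the mean response. Of 45 groups of a member's values with 4 or 5 libraries, tested for a library far from the others, 0 had one, where chance gives about 1 in 20. All these groups are small and mix libraries of both runs, so that the 0 does not show that no library deviates. Groups of 3 libraries were not tested, among them the female controls at 14 dpl, with *Nyx* at 3.64, 23.0 and 11.7 CPM.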

How the results depend on the processing

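The 52 alternatives of the mean response to SCFA include 42 that leave out 1 library each. *Cabp5* was called in 52 (log2 fold change 0.26 to 0.52), *Vsx1* in 52 (0.30 to 0.60) and *Gng13* in 44 (0.09 to 0.31). *Pcp2* was called in 16, *Grm6* in 2, *Prkca* in 1 and the others in 0. Apart from the first run alone, these alternatives take the run difference as the same in both treatments or leave it out. The second run of columns alone, an alternative chosen after seeing the data, holds too few groups to give this mean. *Gng13* was lost without a block for the run (0.09), with the length trend removed (0.10), with the replicate block (0.14) and in the first run alone (0.16). Removal of the length trend was an alternative chosen after seeing the data. The count of members called was 0 by the study's DEG rule, read as an absolute log2 fold change over 1, and 5 with the GC trend removed, an alternative chosen after seeing the data, which added *Grm6* and *Pcp2*. It was 2 to 4 when each library was left out in turn.

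In males at 7 dpl the count was 1 without a filter on low counts, 1 with the GC trend removed and 3 with the study's libraries, where *Prkca* turned to 0.35. It was 1 in males at 3 dpl without the filter. In females at 3 dpl it was 3 without the filter, 3 in the first run alone and 0 to 1 when a library was left out, the 1 being *Pcp2* without female SCFA, 3 dpl, replicate 4 (0.60, edgeR's adjusted p = 0.0938). With the study's libraries it was 1 in males and 3 in females at 14 dpl and 2 between the sexes at 7 dpl, where *Pcp2* turned to 0.46 and *Scgn* to 0.50. The sex difference in the response at 14 dpl gave 1 without the filter. The cause was not tested. For all other comparisons, leaving out each library kept the count at 0.

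Replicate numbers did not pair the libraries, as deviations of same-numbered libraries of different groups correlated by 0.013 on average (198 pairs, -0.588 to 0.66). With the number as a replicate block, 2 members were called in the mean response. The lowest value of a member rested on 36 counts, of *Nyx*, where counting error adds to the spread between libraries. For the other members the lowest value rested on at least 164 counts. The number of libraries per group, and per run within groups, limits the precision.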
